A study of Caenorhabditis elegans with 15 samples.

Results

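The comparison described here sets *age-1; gas-1* double mutants against wild-type nematodes (wt), and asks what still differed from wt in a mitochondrial mutant whose insulin/IGF-1 signaling had been lowered. Genes were included when they reached at least 1 FPKM, the number of sequenced fragments scaled to transcript length and library size, in at least 5 of the 10 libraries of these strains, and 11330 of the 20483 genes in the tables did so. The double mutants carried *age-1(hx546)* and *gas-1(fc21)*, both of which lower the function of their gene, and wt animals carried neither. Animals of both strains were synchronized, grown at 20 °C on OP50 bacteria and sequenced whole, with 5 libraries per strain. Another 5 libraries came from *gas-1(fc21)* single mutants and are given only where they bear on a gene of this comparison. No *age-1* single mutant was sequenced, so an effect of *age-1(hx546)* by itself cannot be told apart from one that needs both alleles, and each genotype was a single strain.

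GAS-1 is a core subunit of respiratory complex I, which passes electrons from NADH to ubiquinone and pumps protons across the inner mitochondrial membrane. AGE-1 is the catalytic subunit of the phosphoinositide 3-kinase that the insulin receptor DAF-2 activates. Its product recruits PDK-1 and the AKT kinases, which keep the forkhead factor DAF-16 out of the nucleus. When this signaling is weak, DAF-16 enters the nucleus and raises genes of stress defense, fat metabolism and trehalose synthesis, and animals with such mutations are known for their long life.

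The FPKM of a library summed to between 658126 and 702623. The yolk gene *vit-2* was the most abundant transcript of each of the 10 libraries, with 11.5% to 14.1% of this sum in *age-1; gas-1* and 4.19% to 5.65% in wt libraries. The sample labels give L4, the last larval stage, while the RNA extraction to which the study's sequencing methods refer names young adults, so the stage is not certain. Yolk genes are known to be transcribed in the adult intestine, and transcripts of oocytes and embryos were also present in every library. FPKM hold no read totals, and the spacing of low values gives only a rough relative depth, with a log2 value of 1 read of -0.36 to 0.62 in *age-1; gas-1* and of -0.36 to 0.26 in wt libraries, relative to wt replicate 1. Genes expressed in sperm were low in *age-1; gas-1* replicates 2 and 5 and wt replicate 3, as described with the germline below. The first principal component of the 10 libraries held 64% of the variance and separated the strains, and the second held 30.3%. The study's methods call the 5 libraries of a strain biological replicates, but the sources used here do not say whether they came from separate cultures, and p-values measure the spread between these libraries.

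*age-1; gas-1* mutants differed from wt in most measured transcripts, although mostly by less than 2-fold. With limma on log2(FPKM + 0.1) and a 5% false discovery rate, 4952 of the 11330 genes rose (43.7%) and 3628 fell (32%). Of all genes, 59.1% passed the test with a change under 2-fold. Larger changes were mostly upward, with 1806 genes at least 2-fold higher (15.9%) and 83 at least 2-fold lower (0.733%), but 261 were at least 2-fold lower without wt replicate 3. After quantile normalization 935 were at least 2-fold higher and 482 at least 2-fold lower. At least 8-fold changes were found for 131 genes upward (1.16%) and 6 downward (0.053%). All 5 libraries of one strain lay above all 5 of the other for 62.5% of genes, 34.8% with *age-1; gas-1* on top and 27.7% with wt on top. The split depended on scaling, since 4452 genes rose and 4245 fell after median-of-ratios rescaling, and 3307 rose and 4939 fell after quantile normalization. The median over all genes was 0.11 on the log2 scale, 0.02 once rescaled to medians of ratios and -0.12 after quantile normalization, and the lists below are read against this shift. Counts over a list are to be read against the 43.7% that rose and the 32% that fell over all genes. Level also mattered. Of genes averaging under 5 FPKM, 60.7% rose and 9.15% fell, while of those at 100 FPKM or more, 24% rose and 56.8% fell. The filter has a part in this, because 441 genes reached 1 FPKM in all 5 *age-1; gas-1* libraries and in no wt library, and all of these had to be higher. The same holds for each gene named below that was under 1 FPKM in every wt library. Only 25 genes met the opposite condition. Among the 9488 genes at 1 FPKM or more in all 10 libraries, 3789 rose and 3564 fell, 1043 and 61 of them by at least 2-fold. Fold changes are of FPKM + 0.1 and understate those of low genes, and in whole animals fewer cells of a type and less RNA per cell cannot be told apart.

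**Figure D1:**
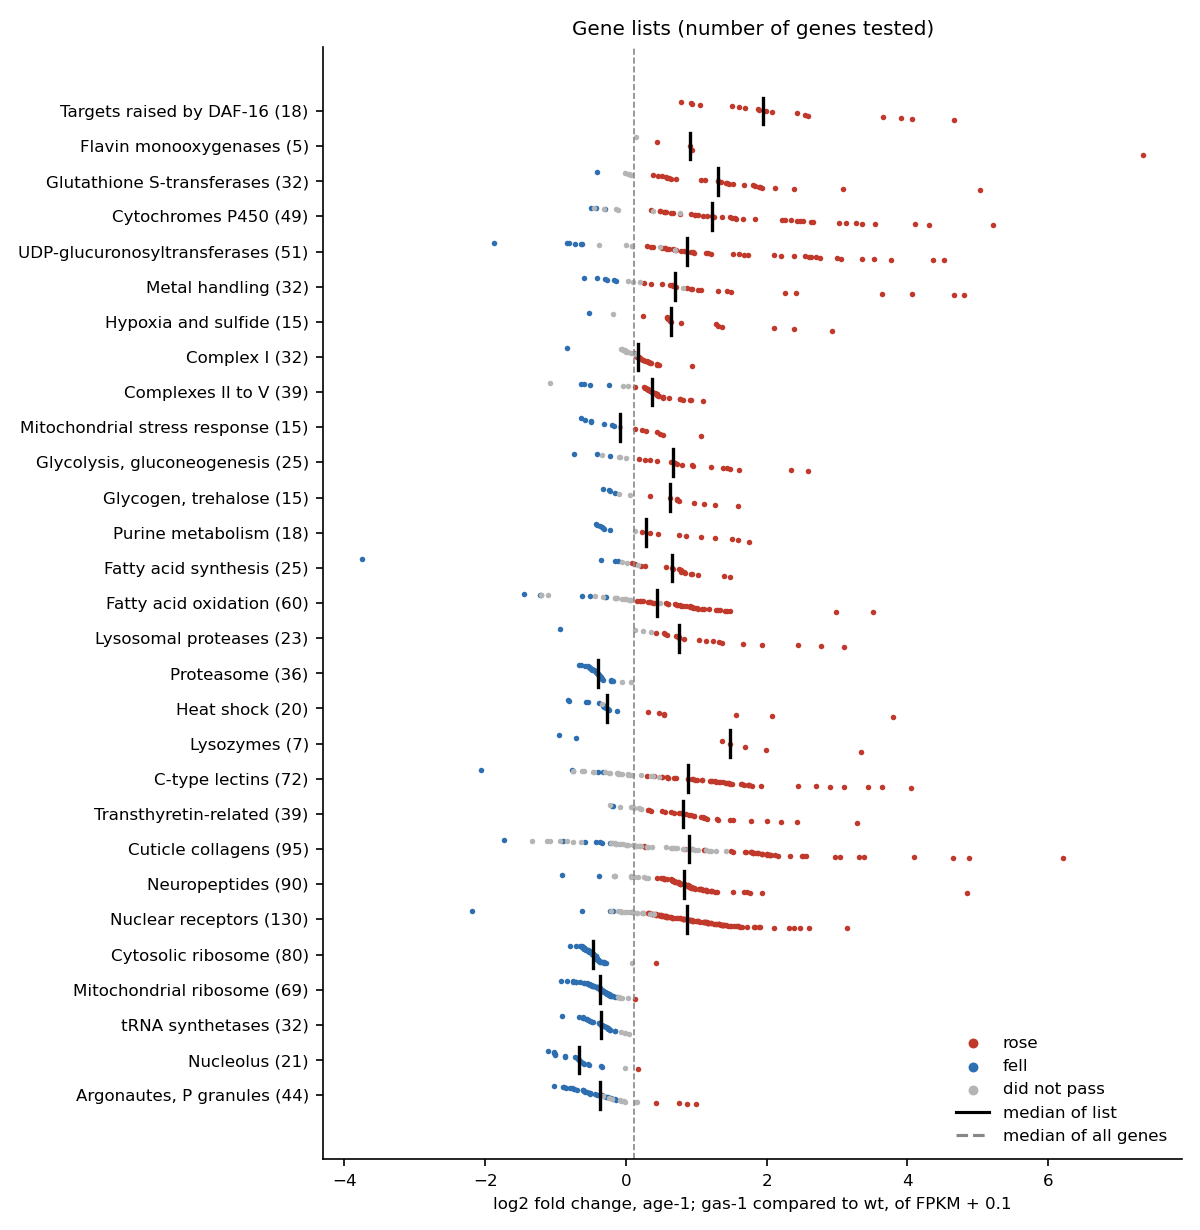
Log2 fold change of FPKM + 0.1 in *age-1; gas-1* mutants relative to wt for the measured genes of 29 lists, 1 point per gene, red where the gene rose, blue where it fell and grey where it did not pass the test, with the list's median as a black bar and the median of all 11330 genes as a dashed line. The medians of the ribosome, tRNA synthetase, nucleolus, proteasome and Argonaute lists lie left of 0, and those of the detoxification, lysosomal protease and DAF-16 target lists lie right of the dashed line.

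The genes that rose most were enzymes of detoxification, acyltransferases, a collagen and several genes known only by sequence names. *fmo-2*, a flavin-containing monooxygenase on chromosome IV from 10682524 to 10684367 of WBcel235, had 23.7, 32.2, 34.4, 30.6 and 32 FPKM in *age-1; gas-1* libraries, against 0.12, 0.0581, 0.172, 0.0317 and 0.0826 FPKM in wt libraries. The choice of these genes required that the strains not overlap. *fmo-2* was also under 1 FPKM in every wt library, so the filter required its rise. The change was 7.35 on the log2 scale (SE 0.226, adjusted p = 5.0e-12 from limma). The cytochrome P450 gene *cyp-14A4* had 29.2, 32.7, 33.5, 29.2 and 32 FPKM in *age-1; gas-1* libraries, against 0.959, 0.686, 0.633, 0.637 and 0.862 FPKM in wt libraries. Its values hardly varied within the double mutant, and the log2 fold change was 5.21. Y49E10.16, a gene with no other name in the tables, was the most abundant of the 12 that rose most, with 97.3 ± 6.25 FPKM in *age-1; gas-1* mutants and 2.81 ± 0.622 FPKM in wt (SD, n = 5 each, as for every ± given here). The collagen gene *col-165* averaged 14.3 ± 9.89 FPKM in *age-1; gas-1* mutants and 0.0803 ± 0.11 FPKM in wt. The O-acyltransferase family members *oac-32* and *oac-14* rose by 5.42 and 5.36 on the log2 scale, and the glutathione S-transferase gene *gst-14* by 5.04. F41C3.1, K10D11.2, T16G1.5, Y58A7A.4 and C06B3.7 rose by 6.14, 5.93, 5.48, 5.31 and 5.05. Of these 12 genes, 10 were under 1 FPKM in every wt library. All 12 were also higher in *gas-1* mutants than in wt. Tested between the mutants, 8 of them were higher in *age-1; gas-1* than in *gas-1* mutants, 1 was lower and 3 did not pass the test. *col-165* differed most, with 14.3 ± 9.89 FPKM in *age-1; gas-1* and 1.08 ± 1.18 FPKM in *gas-1* mutants.

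**Figure D2:**
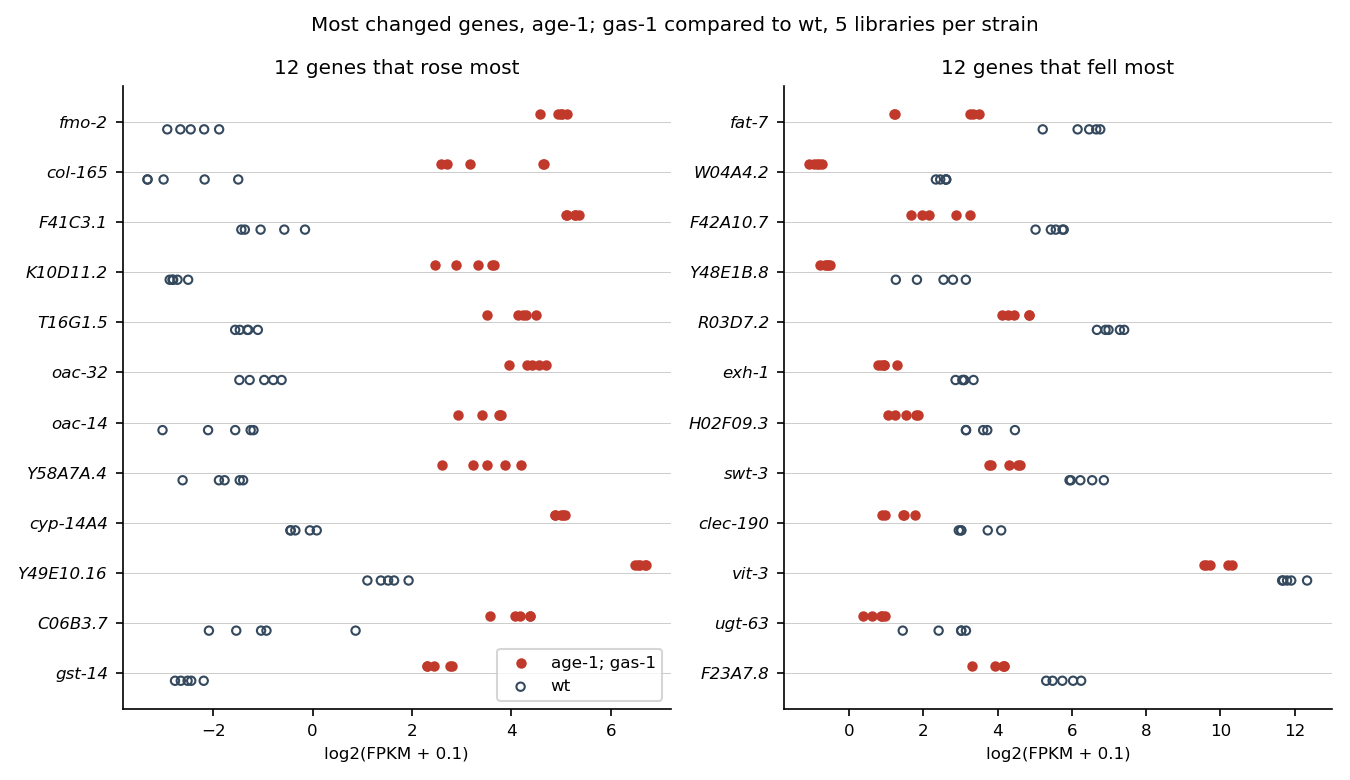
Log2(FPKM + 0.1) in each library for the 12 genes that rose most (left) and the 12 that fell most (right) in *age-1; gas-1* mutants relative to wt, with filled red points for *age-1; gas-1* and open points for wt. The strains do not overlap for any of the 24 genes, as the choice of these genes required.

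The genes that fell most included a fatty acid desaturase, a sugar transporter, a lectin and a yolk gene. *fat-7*, a delta-9 desaturase that makes oleic acid, on chromosome V from 7151353 to 7153146, had 11.2, 2.21, 10.02, 9.41 and 2.27 FPKM in *age-1; gas-1* libraries, against 71.2, 109, 37.1, 101 and 88.4 FPKM in wt libraries. Within the double mutant, replicates 2 and 5 were the lowest, and the change was -3.74 on the log2 scale (SE 0.468, adjusted p = 4.9e-06 from limma). The SWEET family sugar transporter gene *swt-3* averaged 19 ± 5.1 FPKM in *age-1; gas-1* mutants and 81.7 ± 23.3 FPKM in wt. R03D7.2 averaged 23.2 ± 5.38 FPKM in *age-1; gas-1* mutants and 135 ± 27.7 FPKM in wt, and F42A10.7 5.6 ± 2.73 FPKM in *age-1; gas-1* mutants and 46.3 ± 9.12 FPKM in wt. The C-type lectin gene *clec-190* had 1.73, 3.32, 2.65, 1.84 and 2.68 FPKM in *age-1; gas-1* libraries, against 7.65, 8.04, 17, 7.96 and 13.2 FPKM in wt libraries. It was the only one of the 12 that was higher in *gas-1* mutants than in wt, with 126 ± 19.2 FPKM, while 10 were lower in *gas-1* mutants and 1 did not pass the test. The remaining genes, W04A4.2, Y48E1B.8, *exh-1*, H02F09.3, *vit-3*, *ugt-63* and F23A7.8, fell by 1.82 to 3.42. Between the mutants, 3 of the 12 were higher in *age-1; gas-1*, 4 were lower and 5 did not pass the test. H02F09.3 was among the lower ones, with 2.77 ± 0.681 FPKM in *age-1; gas-1* mutants, 11.5 ± 2.72 FPKM in *gas-1* mutants and 13 ± 5.43 FPKM in wt.

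All measured genes that DAF-16 is known to raise were higher in *age-1; gas-1* mutants than in wt. Of 27 listed genes 18 passed the filter. All 18 rose and none fell, 15 of them by at least 2-fold, with a median of 1.94 on the log2 scale, beside 43.7% of all genes higher. The filter has a part in this count. *sod-3* and *mtl-1*, for example, were under 1 FPKM in every wt library, so they passed it only through the double mutant and had to be higher. The list was chosen with results of these libraries known and is not independent evidence of its direction. In this and the following lists, genes named as exceptions were chosen after their values were seen. The mitochondrial superoxide dismutase gene *sod-3* had 3.53, 4.23, 4.19, 3.75 and 4.12 FPKM in *age-1; gas-1* libraries, against 0.175, 0.245, 0.231, 0.212 and 0.257 FPKM in wt libraries. The strains did not overlap, as the filter required for *sod-3*, and the log2 fold change was 3.65 (SE 0.112, adjusted p = 4.9e-12). The metallothionein gene *mtl-1* averaged 9.08 ± 2.3 FPKM in *age-1; gas-1* mutants, 1.92 ± 0.463 FPKM in *gas-1* mutants and 0.257 ± 0.0631 FPKM in wt. The same order of strains was seen for *icl-1*, the glyoxylate cycle enzyme that lets animals make sugar from fat, with 599.7 ± 71.7 FPKM in *age-1; gas-1* mutants, 284 ± 77.7 FPKM in *gas-1* mutants and 103 ± 33.7 FPKM in wt. *cdr-2*, named for its response to cadmium, had 61.4 ± 8.29 FPKM in *age-1; gas-1* mutants, 71.4 ± 5.64 FPKM in *gas-1* mutants and 3.58 ± 0.601 FPKM in wt, and between the mutants its log2 fold change was -0.22 (adjusted p = 0.14). Compared to *gas-1* mutants, 16 of the list rose and none fell. Of 14 genes that DAF-16 is known to lower, 10 passed the filter. Of these 6 rose compared to wt, among them *dod-22* by 4.29, the insulin gene *ins-7* by 1.06 and *vit-2* by 1.36, and only *dod-24* fell. That was 60% and 10%, beside 43.7% and 32% of all genes. *dod-22* and *ins-7* were under 1 FPKM in every wt library, so the filter required their rise. After quantile normalization 3 of them rose, and the calls of *ins-7* and *vit-2* were lost. Of 13 listed genes of dauer larvae, the arrested stage that low insulin signaling favors, 7 were tested. Of these 5 rose and 1 fell (71.4% and 14.3%), beside 43.7% and 32% of all genes, and 3 rose with a filter at 5 FPKM. *lea-1*, which encodes a desiccation protein, averaged 347 ± 18.3 FPKM in *age-1; gas-1* mutants, 140.2 ± 22.1 FPKM in *gas-1* mutants and 93.5 ± 7.56 FPKM in wt. *dao-3* and *daf-36* rose by 1.17 and 1.04.

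Within the insulin pathway itself, 10 of 19 measured genes rose and 6 fell, beside 43.7% and 32% of all genes. *akt-2*, one of the AKT kinase genes, had 8.57, 8.23, 10.04, 9.04 and 8.14 FPKM in *age-1; gas-1* libraries, against 3.68, 2.89, 2.58, 2.71 and 3.18 FPKM in wt libraries. It rose by 1.52 (adjusted p = 7.2e-09), while the other, *akt-1*, had a log2 ratio to wt of 0.032 (adjusted p = 0.64). The receptor gene *daf-2* averaged 102 ± 7.43 FPKM in *age-1; gas-1* mutants, 68.3 ± 4.63 FPKM in *gas-1* mutants and 70.6 ± 7.22 FPKM in wt, and rose by 0.53 compared to wt. The kinase gene *pdk-1* rose by 0.65 with overlapping libraries. *age-1*, on chromosome II from 11519328 to 11527054, averaged 3.88 ± 0.136 FPKM in *age-1; gas-1* mutants and 4.53 ± 0.392 FPKM in wt, a fall by 0.21 (adjusted p = 0.024) that no longer passed the test without *age-1; gas-1* replicate 4, without wt replicate 3 or when the libraries low in sperm genes were left out. *daf-16* averaged 102 ± 4.84 FPKM in *age-1; gas-1* mutants and 92.7 ± 2.89 FPKM in wt. Its rise by 0.14 (adjusted p = 0.0054) did not pass after median-of-ratios rescaling. The genes of the 14-3-3 proteins that hold DAF-16 in the cytosol moved apart, *ftt-2* by 0.80 and *par-5* by -0.44. Both alleles are point mutations, so these levels do not check the strain labels.

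Most genes of the respiratory chain were slightly more abundant in *age-1; gas-1* mutants than in wt. Of 32 measured complex I genes of the nucleus, 21 rose and 1 fell (65.6% and 3.13%), beside 43.7% and 32% of all genes. Their median of 0.17 was close to the 0.11 over all genes. After median-of-ratios rescaling 12 rose and 1 fell, with a median of 0.075, beside 0.017 over all genes. Without that rescaling only *gas-1* rose by more than 0.5. *gas-1*, on chromosome X from 15586786 to 15590397, had 219.9, 212, 234, 234 and 204 FPKM in *age-1; gas-1* libraries, against 120.2, 123, 95.7, 116 and 121 FPKM in wt libraries. The strains did not overlap, wt replicate 3 was the lowest, and the log2 fold change was 0.94 (adjusted p = 5.4e-08). The single complex I gene that fell was *nduf-2.2*, the paralog of *gas-1*, on chromosome III from 6465222 to 6467206, with 164, 153, 162, 168 and 163 FPKM in *age-1; gas-1* libraries, against 299, 271, 294, 303 and 275 FPKM in wt libraries. This was -0.83 on the log2 scale (SE 0.0377, adjusted p = 3.1e-10), and the mean in *gas-1* mutants, 208 ± 5.45 FPKM, lay between. Near-identical copies may share reads in the authors' counting. The library kit keeps strand, but whether the counting used it is not given in the sources used here, and this also holds for overlapping and antisense genes. *nuo-1*, which encodes the subunit that binds NADH, averaged 955 ± 34.9 FPKM in *age-1; gas-1* mutants and 839.5 ± 34 FPKM in wt, and the accessory subunit gene *ndua-12* 45.4 ± 0.889 FPKM in *age-1; gas-1* mutants and 33.3 ± 0.867 FPKM in wt. Compared to *gas-1* mutants, none of the complex I genes rose and 12 fell, beside 13.7% of all genes higher and 19.6% lower between the mutants. Of 39 genes of complexes II to V, 32 rose compared to wt and 4 fell (82.1% and 10.3%), namely *asb-1*, *ucr-2.3*, *sdha-2* and *asg-1*. *sdha-1*, the flavoprotein of complex II, averaged 279 ± 12.1 FPKM in *age-1; gas-1* mutants and 146 ± 7.78 FPKM in wt, and *ucr-2.1*, a core protein of complex III, 86.2 ± 3.17 FPKM in *age-1; gas-1* mutants and 40.5 ± 3.67 FPKM in wt. *mev-1*, the cytochrome b subunit of complex II, rose by 0.27 and *atp-1*, the alpha subunit of ATP synthase, by 0.32, while *asb-1*, a b subunit of ATP synthase, fell by 0.64.

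Genes of mitochondrial quality control moved both ways. In the list of the mitochondrial unfolded protein response, 7 of 15 genes rose and 7 fell (46.7% each), beside 43.7% and 32% of all genes. The chaperone gene *hsp-6*, its usual reporter, had 280.4, 242, 270.3, 288 and 256 FPKM in *age-1; gas-1* libraries, against 294, 276, 279, 310.3 and 259.9 FPKM in wt libraries. These values overlapped, with a log2 fold change of -0.087 (adjusted p = 0.19), and the difference passed the test after median-of-ratios rescaling and with the replicate number as a block. *dve-1*, a nuclear factor of the response, rose by 1.07, the import channel gene *timm-23* by 0.49, and the chromatin cofactor gene *lin-65* fell by 0.50. Of 12 genes of mitochondrial shape and turnover, 4 rose (*dct-1*, *fis-2*, *immt-1* and *mff-1*) and 5 fell (*eat-3*, *fzo-1*, *immt-2*, *mff-2* and *miro-1*), or 8 after median-of-ratios rescaling. Without that rescaling 33.3% rose and 41.7% fell. The cristae organizer *immt-1* rose by 0.76 while its relative *immt-2* fell by 0.48, and the fission factor gene *mff-2* fell by 0.42. *fzo-1*, the mitofusin of the outer membrane, averaged 46.2 ± 2.79 FPKM in *age-1; gas-1* mutants and 49.8 ± 0.509 FPKM in wt, a fall by 0.11 (adjusted p = 0.039) that was lost under 15 of 25 alternative settings, among them leaving out any library of these strains other than *age-1; gas-1* replicate 3. *pdr-1*, the parkin gene, had a log2 ratio to wt of -0.071 (adjusted p = 0.17) and *wah-1*, an apoptosis-inducing factor, of -0.035 (adjusted p = 0.63), which passed the test without wt replicate 3.

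Most measured detoxification genes rose. Of all genes 43.7% rose and 32% fell, and 15.9% rose at least 2-fold. Of 32 measured glutathione S-transferases, which couple glutathione to toxic compounds, 27 rose and only *gst-44* fell, and 19 rose at least 2-fold. The call of *gst-44* was lost without *age-1; gas-1* replicate 1 or 5 or wt replicate 3. Of 49 listed members 32 were tested, and with a filter at 5 FPKM, which leaves fewer genes, 15 rose and none fell. *gst-4*, a target of the stress factor SKN-1, on chromosome IV from 10142225 to 10143099, had 123, 112, 145, 130.4 and 124 FPKM in *age-1; gas-1* libraries, against 12.9, 18.4, 11.1, 15.7 and 17 FPKM in wt libraries. Its log2 fold change was 3.09 compared to wt and 0.43 compared to *gas-1* mutants (adjusted p = 0.013). Between the mutants 13 of the family were higher in *age-1; gas-1*, 7 were lower and 12 did not pass the test, beside 13.7% of all genes higher and 19.6% lower. *gst-1*, the most abundant member, had a log2 ratio to wt of -0.0075 (adjusted p = 0.91). Of 49 cytochrome P450 genes, which oxidize foreign compounds and lipids, 40 rose and 3 fell, and the 3 that fell, *cyp-31A2*, *cyp-31A3* and *cyp-31A5*, are close relatives of each other. With the filter at 5 FPKM 20 P450 genes rose. Between the mutants 22 P450 genes were higher in *age-1; gas-1*, 5 were lower and 22 did not pass the test. *cyp-33C8* averaged 93.2 ± 5.29 FPKM in *age-1; gas-1* mutants, 132 ± 10.9 FPKM in *gas-1* mutants and 4.62 ± 0.601 FPKM in wt, *cyp-14A1* 15.2 ± 0.911 FPKM in *age-1; gas-1* mutants, 10.5 ± 0.841 FPKM in *gas-1* mutants and 1.23 ± 0.209 FPKM in wt, and *cyp-35A2* 97.4 ± 30.6 FPKM in *age-1; gas-1* mutants, 45.3 ± 14.3 FPKM in *gas-1* mutants and 35.9 ± 17.5 FPKM in wt. Of 51 UDP-glucuronosyltransferases, which attach sugars, 39 rose and 6 fell, or 11 after quantile normalization. *ugt-62* had 219, 206, 243, 198 and 187 FPKM in *age-1; gas-1* libraries, against 18.4, 17, 12.3, 15.2 and 14.7 FPKM in wt libraries. No libraries of the strains overlapped. *ugt-31* averaged 233 ± 59 FPKM in *age-1; gas-1* mutants, 61.5 ± 34.2 FPKM in *gas-1* mutants and 11 ± 1.8 FPKM in wt, higher in *age-1; gas-1* than in *gas-1* mutants by 2.01 (adjusted p = 8.7e-05), whereas *ugt-19* was lower than in *gas-1* mutants by 0.63 and *ugt-21* rose by 3.00 compared to wt. Besides *fmo-2*, the monooxygenases *fmo-4* and *fmo-1* rose by 0.91 and 0.94. Among 40 ABC transporters, which export conjugated toxins and lipids, 24 rose and 8 fell. The P-glycoprotein *pgp-5* had 60.3, 136, 126, 119 and 108 FPKM in *age-1; gas-1* libraries, against 5.34, 4.16, 3.18, 3.64 and 4.58 FPKM in wt libraries, while *pgp-9* and the heme exporter *mrp-5* rose by 1.76 and 1.47. Of 26 short-chain dehydrogenases, 16 rose, for example *dhs-2* by 1.93 and the lipid droplet protein gene *dhs-3* by 0.94, and 4 fell, the exceptions being *dhs-1*, *dhs-11*, *dhs-13* and *dhs-25*.

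Genes of metal handling and of the hypoxia and sulfide responses rose, while antioxidant and chaperone genes moved both ways. Of 32 genes of metal handling 22 rose and 6 fell (68.8% and 18.8%), beside 43.7% and 32% of all genes. *ftn-1*, the ferritin of the intestine, had 11.8, 19.7, 15.5, 16.4 and 18.4 FPKM in *age-1; gas-1* libraries, against 1.05, 0.539, 0.152, 0.564 and 0.447 FPKM in wt libraries. It rose by 4.80 with no overlap, and *cdr-4*, another cadmium response gene, averaged 148 ± 12 FPKM in *age-1; gas-1* mutants, 164 ± 8.55 FPKM in *gas-1* mutants and 11.8 ± 1.91 FPKM in wt. In the list of the hypoxia factor HIF-1 and sulfide oxidation, 13 of 15 rose (86.7%) and only *mpst-1* fell. *nhr-57*, a usual reporter of HIF-1, averaged 1.92 ± 0.156 FPKM in *age-1; gas-1* mutants and 0.283 ± 0.0259 FPKM in wt, *sqrd-1*, which oxidizes sulfide in mitochondria, 11.9 ± 0.743 FPKM in *age-1; gas-1* mutants and 2.71 ± 0.486 FPKM in wt, and *hif-1* itself 296 ± 15.7 FPKM in *age-1; gas-1* mutants and 190.5 ± 11.1 FPKM in wt. Between the mutants the largest difference among these 3 genes was 0.19 on the log2 scale, for *nhr-57*. Of 30 antioxidant genes 14 rose and 6 fell (10 after quantile normalization). The share that rose, 46.7%, was close to the 43.7% of all genes, and 20% fell. The thioredoxin reductase gene *trxr-2* rose by 0.92, the glutaredoxin gene *glrx-3* fell by 0.39, and *prdx-2*, the most abundant peroxiredoxin, had 867 ± 43.9 FPKM in *age-1; gas-1* mutants and 784 ± 59.5 FPKM in wt. Of 20 genes of cytosolic chaperones and of heat shock regulators such as *hsf-1*, 7 rose and 12 fell (35% and 60%). *hsp-1*, the constitutive Hsp70, had 4315, 4161, 3937, 4323 and 4790.2 FPKM in *age-1; gas-1* libraries, against 7269, 7020.3, 8343, 8181 and 7208 FPKM in wt libraries. It fell by 0.82 (adjusted p = 6.4e-08), a call lost after quantile normalization, and its partner *hsp-110* fell by 0.80. The inducible *hsp-70* went the other way, with 3.35, 7.66, 4.14, 3.91 and 6.65 FPKM in *age-1; gas-1* libraries, against 0.161, 0.20, 0.76, 0.16 and 0.233 FPKM in wt libraries, and wt replicate 3 was the highest of its strain. In the endoplasmic reticulum, *xbp-1*, the factor of the unfolded protein response, rose by 0.69, its target *hsp-4* fell by 0.46, and of 23 genes 8 rose and 9 fell, an order that changed with scaling and without wt replicate 3 (11 and 9). In the fit of all libraries 34.8% of these genes rose and 39.1% fell.

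In carbohydrate metabolism, most measured genes of glycolysis and gluconeogenesis rose, while genes of glycogen and trehalose moved both ways. Of 15 glycogen and trehalose genes 9 rose and 4 fell (60% and 26.7%), beside 43.7% and 32% of all genes. The number that fell was 5 after median-of-ratios rescaling. *pck-1*, a phosphoenolpyruvate carboxykinase, the committed step of gluconeogenesis, on chromosome III from 62888 to 66260, had 227, 274, 227, 254 and 273 FPKM in *age-1; gas-1* libraries, against 49.8, 48.3, 47.1, 46.6 and 54.3 FPKM in wt libraries. All *age-1; gas-1* libraries were above all wt libraries, by 2.35 on the log2 scale (SE 0.0664, adjusted p = 2.1e-12), and the difference from *gas-1* mutants was 0.34 (adjusted p = 0.0013). *pck-2*, the second such gene, averaged 457 ± 36.1 FPKM in *age-1; gas-1* mutants, 304 ± 19.1 FPKM in *gas-1* mutants and 176 ± 14.4 FPKM in wt. The glycolytic genes *aldo-2*, an aldolase, and *enol-1*, the enolase, rose by 0.72 and 0.67. In all, 18 of 25 genes of glycolysis and gluconeogenesis rose and 3 fell (72% and 12%), namely *gpd-1*, *gpd-4* and *pyk-1*. *tps-1*, which makes trehalose phosphate, had 17.5, 21.3, 21.1, 21 and 18.8 FPKM in *age-1; gas-1* libraries, against 7.01, 6.39, 6.22, 6.35 and 6.71 FPKM in wt libraries. The phosphatase gene *gob-1*, which completes trehalose synthesis, rose by 0.72, and *tre-3*, a trehalase that breaks it down, by 1.26. Glycogen phosphorylase, *pygl-1*, fell by 0.24. The acid glucosidase genes *aagr-1* and *aagr-2* averaged 39.7 ± 6.66 FPKM in *age-1; gas-1* mutants, 17.9 ± 4.14 FPKM in *gas-1* mutants and 18.4 ± 3.87 FPKM in wt, and 293 ± 29.6 FPKM in *age-1; gas-1* mutants, 191 ± 14.9 FPKM in *gas-1* mutants and 231 ± 31.4 FPKM in wt. Both were thus higher in *age-1; gas-1* than in either other strain. Of the energy-sensing kinases, 19 of 28 genes of AMPK and PKA rose and 5 fell (67.9% and 17.9%), namely *aak-1*, *aakb-2*, *mop-25.2*, *par-4* and *pde-12*. The call of *aak-1* was lost without any 1 wt library and without *age-1; gas-1* replicate 2, 4 or 5. *aakg-4*, a gamma subunit of AMPK, averaged 41.7 ± 4.39 FPKM in *age-1; gas-1* mutants, 24.4 ± 1.93 FPKM in *gas-1* mutants and 11.7 ± 1.68 FPKM in wt, the catalytic subunit *aak-2* 243 ± 15.7 FPKM in *age-1; gas-1* mutants, 209.6 ± 9.36 FPKM in *gas-1* mutants and 173 ± 20.6 FPKM in wt, and *aakb-2*, a beta subunit, 213 ± 8.54 FPKM in *age-1; gas-1* mutants, 205 ± 13.3 FPKM in *gas-1* mutants and 286 ± 18 FPKM in wt. The catalytic subunit of PKA, *kin-1*, rose by 0.99 and its regulatory subunit *kin-2* by 0.35.

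**Figure D3:**
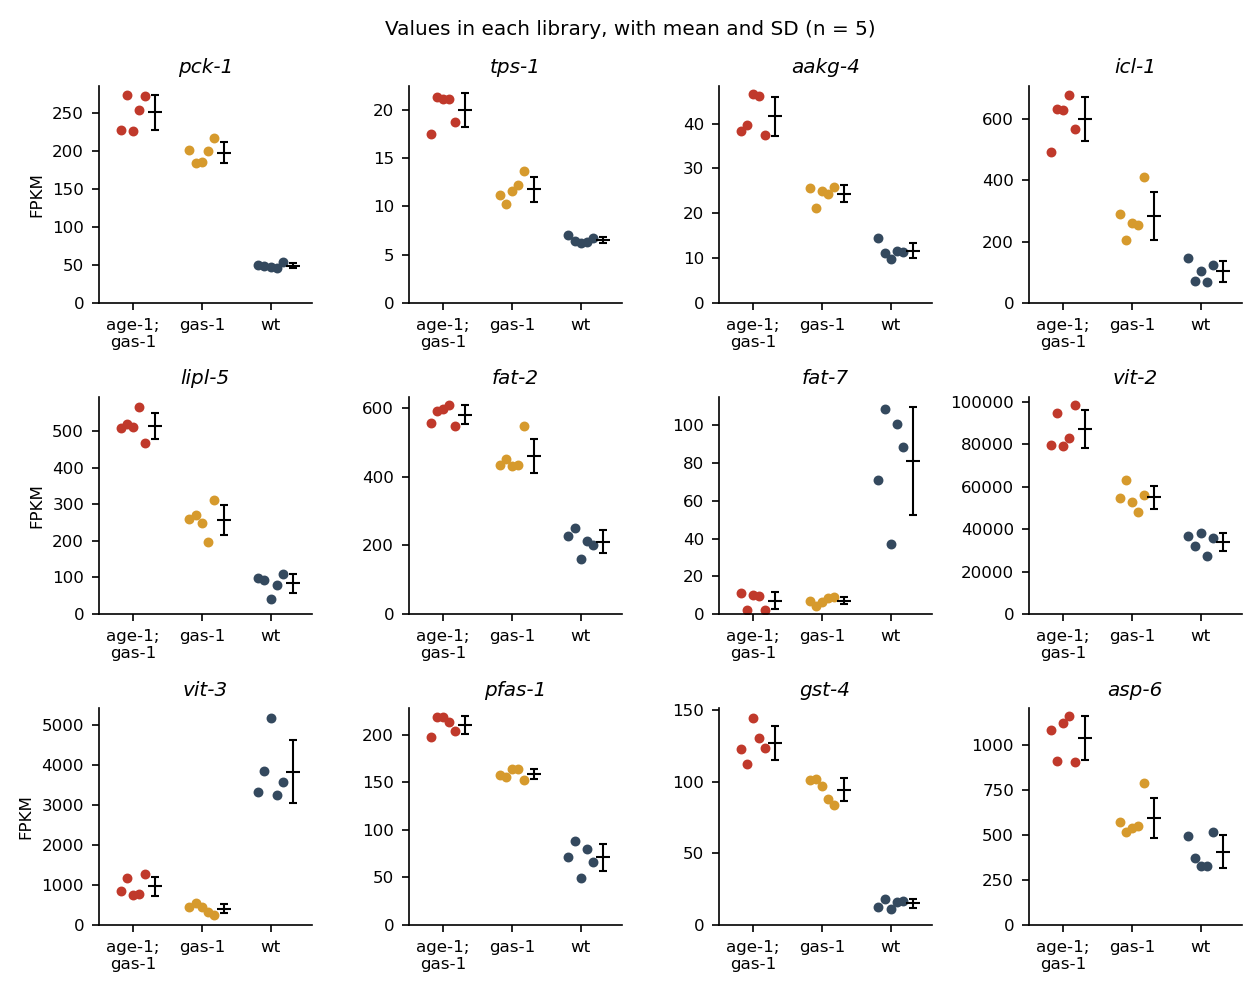
FPKM in each library of *age-1; gas-1*, *gas-1* and wt animals for 12 genes of metabolism, detoxification and proteolysis, with the mean and SD of 5 libraries beside the points, each panel with its own axis from 0. For *pck-1*, *tps-1*, *aakg-4*, *icl-1*, *lipl-5*, *fat-2*, *vit-2*, *pfas-1*, *gst-4* and *asp-6* the 5 *age-1; gas-1* libraries lie above the 5 wt libraries, and for *fat-7* and *vit-3* below them.

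Purine genes moved both ways. The enzymes of de novo synthesis *pfas-1* and *atic-1* averaged 211 ± 9.18 FPKM in *age-1; gas-1* mutants, 159 ± 5.21 FPKM in *gas-1* mutants and 71.1 ± 14.6 FPKM in wt, and 186 ± 8.1 FPKM in *age-1; gas-1* mutants, 146 ± 5.81 FPKM in *gas-1* mutants and 78.3 ± 12.2 FPKM in wt. *pnp-1*, which splits purine nucleosides, rose by 1.50, and *xdh-1*, which oxidizes purines to urate, averaged 8.82 ± 0.571 FPKM in *age-1; gas-1* mutants, 9.49 ± 1.2 FPKM in *gas-1* mutants and 4.2 ± 0.682 FPKM in wt. The nucleoside diphosphate kinase gene *ndk-1* fell by 0.41. Of 18 purine genes 10 rose and 7 fell (55.6% and 38.9%), beside 43.7% and 32% of all genes.

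The desaturase genes *fat-1*, *fat-2* and *fat-4* of polyunsaturated fatty acids rose, while *fat-7*, a delta-9 desaturase gene, fell. The related gene *fat-5*, listed among those that DAF-16 is known to raise, was higher. Of 25 genes of fatty acid synthesis 18 rose and 4 fell, which besides *fat-7* were *acly-1*, *acly-2* and *elo-3*. The call of *acly-1* was lost without *age-1; gas-1* replicate 3 or 4 or wt replicate 3 or 5, and that of *elo-3* without *age-1; gas-1* replicate 2 or 5 or wt replicate 2 or 5. *fat-2*, the delta-12 desaturase, had 555, 592, 596, 609 and 546 FPKM in *age-1; gas-1* libraries, against 228, 250.1, 160.4, 214 and 201 FPKM in wt libraries. The omega-3 desaturase *fat-1* and the delta-5 desaturase *fat-4* rose by 0.85 and 0.93. Of 27 genes of lipases and lipid-binding proteins 14 rose and 8 fell (51.9% and 29.6%), shares close to the 43.7% and 32% of all genes. The lysosomal lipase gene *lipl-5* averaged 515 ± 35.9 FPKM in *age-1; gas-1* mutants, 258 ± 40.7 FPKM in *gas-1* mutants and 84.2 ± 26.5 FPKM in wt, and the lipid-binding protein gene *lbp-1* rose by 1.62. In fatty acid oxidation 38 of 60 genes rose and 7 fell, or 14 after quantile normalization and 12 without wt replicate 3. The acyl-CoA synthetase gene *acs-11* rose by 1.08 and *acdh-11*, an acyl-CoA dehydrogenase, by 0.69. Genes of propionate breakdown mostly rose, with 10 of 14 genes higher and 1, *hach-1*, lower. The propionyl-CoA carboxylase genes *pcca-1* and *pccb-1* rose by 0.81 and 0.80, and *acdh-1*, the first enzyme of the shunt used when vitamin B12 is low, averaged 1397 ± 212 FPKM in *age-1; gas-1* mutants, 992 ± 59.5 FPKM in *gas-1* mutants and 944 ± 139.9 FPKM in wt. In methionine and phosphatidylcholine metabolism, 6 of 20 genes rose and 7 fell, or 3 and 9 after quantile normalization, and 30% rose beside 43.7% of all genes. *pmt-1*, which methylates phosphoethanolamine, rose by 0.73, while the methionine adenosyltransferase gene *sams-3* fell by 0.89.

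The yolk genes moved in opposite directions. Vitellogenins are made in the intestine, secreted and taken up by oocytes. *vit-2* had 79716, 94988, 79503, 83012 and 98840.1 FPKM in *age-1; gas-1* libraries, against 36617, 32296, 38121, 27589.8 and 35773 FPKM in wt libraries, a rise by 1.36 (adjusted p = 5.5e-08). Quantile normalization sets the most abundant gene of every library to one value, so that setting can show no change of *vit-2*. *vit-6* averaged 3073 ± 165 FPKM in *age-1; gas-1* mutants, 1894 ± 93.8 FPKM in *gas-1* mutants and 1223 ± 135 FPKM in wt. In contrast *vit-3* had 845, 1175, 759.6, 787 and 1278 FPKM in *age-1; gas-1* libraries, against 3314, 3852, 5179.8, 3249 and 3564 FPKM in wt libraries. The lowest wt library was above the highest *age-1; gas-1* library, and compared to *gas-1* mutants *vit-3* was higher by 1.27 (adjusted p = 3.4e-04). *vit-3* has near-identical copies in *vit-4* and *vit-5*, so how the authors' counting divided their reads limits these values. *vit-4* was also lower in every *age-1; gas-1* library than in any wt library. *vit-5* went the other way, with 1718 to 2935 FPKM in *age-1; gas-1* and 1018 to 1662 FPKM in wt libraries. Of the 6 yolk genes 3 rose and 3 fell, and *vit-1* was the third that fell. The limit from shared reads may also hold for the other yolk genes.

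Lysosomal proteases rose while the proteasome fell. Of 23 cathepsin, legumain and aspartyl protease genes 19 rose and only *asp-12* fell. *asp-6*, the most abundant, had 1088, 910.4, 1124, 1166 and 908 FPKM in *age-1; gas-1* libraries, against 495, 371, 330.3, 330.3 and 518 FPKM in wt libraries. *asp-5*, also an aspartyl protease, averaged 186 ± 11.1 FPKM in *age-1; gas-1* mutants, 79.4 ± 10.03 FPKM in *gas-1* mutants and 79.1 ± 12.3 FPKM in wt, and *cpr-6*, a cathepsin B, 275 ± 8.25 FPKM in *age-1; gas-1* mutants, 169 ± 7.07 FPKM in *gas-1* mutants and 168 ± 12.3 FPKM in wt. For these last 2 genes *gas-1* mutants were close to wt. *lgmn-1*, a legumain, rose by 3.09. Lysosomal sugar-cleaving enzymes rose in 7 of 14 cases, such as *hex-1*, a hexosaminidase, by 1.00 and *gba-1*, a glucosylceramidase, by 2.33, and 2, *hex-3* and *hex-5*, fell, or 5 after quantile normalization. The share that rose was 50%, beside 43.7% of all genes. Of 45 proton pump and autophagy genes 20 rose and 7 fell, and the 44.4% that rose did not stand out from 43.7% of all genes. Of the members named by the rule, *hlh-30*, the factor that drives lysosome and autophagy genes, averaged 162 ± 9.9 FPKM in *age-1; gas-1* mutants, 129 ± 9.48 FPKM in *gas-1* mutants and 84.9 ± 7.92 FPKM in wt, the autophagy receptor *sqst-1* 55.1 ± 7.05 FPKM in *age-1; gas-1* mutants, 34.5 ± 5.84 FPKM in *gas-1* mutants and 11.2 ± 2.23 FPKM in wt, and *lgg-1*, the Atg8 protein of autophagosomes, rose by 0.59. Of 36 proteasome genes 34 fell and none rose, beside 32% of all genes lower, with a median of -0.40, and 8 fell by more than 0.5. *pbs-5*, a catalytic subunit of the core, had 249.7, 246, 227, 239 and 251 FPKM in *age-1; gas-1* libraries, against 384, 372, 409.8, 393 and 368 FPKM in wt libraries. The alpha ring gene *pas-2* averaged 66.4 ± 1.65 FPKM in *age-1; gas-1* mutants, 88.3 ± 3.41 FPKM in *gas-1* mutants and 99.6 ± 4.04 FPKM in wt. Compared to *gas-1* mutants 32 of them fell and none rose, beside 19.6% of all genes lower between the mutants.

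Most measured genes of immunity and secretion rose. The lists are set beside 43.7% of all genes higher and 32% lower, and 60.7% higher among genes averaging under 5 FPKM. Tested were 7 of 16 lysozymes, 72 of 237 C-type lectins and 33 of 88 antimicrobial genes. For the intracellular pathogen response and transthyretin-related lists it was 19 of 52 and 39 of 58. With a filter at 5 FPKM, which leaves fewer genes, 31 lectins, 13 antimicrobial, 6 pathogen response and 17 transthyretin-related genes rose. Of 7 measured lysozymes 5 rose and 2, *ilys-5* and *lys-4*, fell (71.4% and 28.6%). *lys-2* had 593, 616, 715, 611 and 521 FPKM in *age-1; gas-1* libraries, against 43.3, 62.8, 81.4, 50.3 and 70.7 FPKM in wt libraries. *lys-8*, raised by DAF-16, averaged 22.2 ± 1.33 FPKM in *age-1; gas-1* mutants, 8.93 ± 0.769 FPKM in *gas-1* mutants and 5.54 ± 0.822 FPKM in wt, and *ilys-5*, an invertebrate-type lysozyme, 651 ± 70.1 FPKM in *age-1; gas-1* mutants, 332 ± 21.3 FPKM in *gas-1* mutants and 1062 ± 93.3 FPKM in wt. Of 72 C-type lectins 46 rose and 5 fell (63.9% and 6.94%), namely *clec-57*, *clec-87*, *clec-139*, *clec-170* and *clec-190*. The call of *clec-57* was lost without *age-1; gas-1* replicate 2, 4 or 5 or wt replicate 1, 2 or 5. The number that fell was 15 after quantile normalization. *clec-4* averaged 11.2 ± 1.53 FPKM in *age-1; gas-1* mutants, 37.4 ± 8.48 FPKM in *gas-1* mutants and 0.819 ± 0.186 FPKM in wt and *clec-17* 3.79 ± 0.964 FPKM in *age-1; gas-1* mutants, 7.2 ± 3.05 FPKM in *gas-1* mutants and 0.139 ± 0.0771 FPKM in wt, both below their level in *gas-1* mutants. Among 33 antimicrobial peptide and saposin genes 22 rose and 4 fell (66.7% and 12.1%), *cnc-8*, *fipr-1*, *fipr-2* and *fipr-5*. The shares of lectins and antimicrobial genes that rose were close to that of all genes under 5 FPKM. The call of *fipr-2* was lost without *age-1; gas-1* replicate 1, 2 or 5 or wt replicate 2 or 5. *spp-1*, a pore-forming saposin-like protein, averaged 128 ± 9.15 FPKM in *age-1; gas-1* mutants, 35.9 ± 4.67 FPKM in *gas-1* mutants and 34.7 ± 4.12 FPKM in wt, and *abf-2*, a defensin-like peptide, 3.5 ± 0.609 FPKM in *age-1; gas-1* mutants, 1.68 ± 0.198 FPKM in *gas-1* mutants and 0.119 ± 0.0297 FPKM in wt. In the list of the intracellular pathogen response 16 of 19 genes rose (84.2%), such as *pals-23* by 2.69 and *fbxa-74* by 2.17, and 2, *drh-1* and *fbxa-72*, fell. Transthyretin-related secreted proteins rose in 29 of 39 cases (74.4%) and fell in 2, *ttr-16* and *ttr-53*. *ttr-46*, the most abundant, had 179 ± 7.14 FPKM in *age-1; gas-1* mutants, 90.02 ± 4.41 FPKM in *gas-1* mutants and 102 ± 6.5 FPKM in wt, and *ttr-23* rose by 3.29.

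Most genes of the translation machinery fell, by less than 2-fold in most cases. Of 80 cytosolic ribosomal protein genes 78 fell, *rpl-25.1* rose and *rpl-11.2* did not pass the test, with a median of -0.46. *rpl-25.2*, of the large subunit, had 309, 282, 266, 309.9 and 336 FPKM in *age-1; gas-1* libraries, against 535, 524, 511, 585 and 457 FPKM in wt libraries. The strains were separate. *rps-7*, the most abundant, averaged 2628 ± 119.7 FPKM in *age-1; gas-1* mutants, 3029 ± 139.98 FPKM in *gas-1* mutants and 3639 ± 361 FPKM in wt. Of 69 mitochondrial ribosomal protein genes 63 fell and only *mrps-11* rose, and *mrpl-53* averaged 23.4 ± 0.928 FPKM in *age-1; gas-1* mutants, 32.8 ± 1.78 FPKM in *gas-1* mutants and 35.5 ± 1.64 FPKM in wt. Cytosolic tRNA synthetases such as *rars-1*, for arginine, and *mars-1*, for methionine, fell by 0.61 and 0.61, as did 28 of 32 such genes, while none rose. Among 53 translation factors 38 fell and 9 rose. *eif-3.J*, a subunit of eIF3, had 128, 125, 124, 129 and 142 FPKM in *age-1; gas-1* libraries, against 271, 282, 289, 313 and 265 FPKM in wt libraries. It fell by 1.13 (SE 0.054, adjusted p = 5.2e-10), *inf-1*, the helicase eIF4A, by 0.91, and *eef-1G*, an elongation factor and the most abundant of the list, had a log2 ratio to wt of -0.038 (adjusted p = 0.44). *ife-2*, a cap-binding eIF4E of the soma, averaged 13.9 ± 1.03 FPKM in *age-1; gas-1* mutants and 10.2 ± 0.833 FPKM in wt and rose by 0.45. The nucleolus, where ribosomes are assembled, fell most, with 19 of 21 genes lower, 5 by at least 2-fold, a median of -0.67, and only *ncl-1*, a repressor of nucleolar size, higher. *dkc-1*, the pseudouridine synthase dyskerin, had 212, 209, 193, 199 and 206 FPKM in *age-1; gas-1* libraries, against 466, 453, 366, 521 and 406 FPKM in wt libraries. *fib-1*, fibrillarin, averaged 222 ± 7.61 FPKM in *age-1; gas-1* mutants, 252 ± 9.11 FPKM in *gas-1* mutants and 453 ± 61 FPKM in wt, and *nol-58*, its partner, 216 ± 6.14 FPKM in *age-1; gas-1* mutants, 282 ± 11.6 FPKM in *gas-1* mutants and 442 ± 62.6 FPKM in wt. After quantile normalization 76 cytosolic ribosomal, 67 mitochondrial ribosomal and 19 nucleolar genes fell.

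Transcripts of the germline fell alongside these. Of 27 oocyte genes 24 fell and 2, *perm-2* and *perm-4*, rose. Their summed level was 13922 to 16434 FPKM in *age-1; gas-1* and 18779 to 23046 FPKM in wt libraries, with none at 0. *lin-41*, which controls oocyte growth, had 81.3, 76, 74.1, 76 and 76 FPKM in *age-1; gas-1* libraries, against 143, 135, 158, 136 and 145 FPKM in wt libraries. The Y-box protein gene *cey-2*, which stores maternal RNA, averaged 545 ± 23 FPKM in *age-1; gas-1* mutants, 706 ± 42.5 FPKM in *gas-1* mutants and 955 ± 55 FPKM in wt. Of 33 genes of germ cell proliferation and meiosis 29 fell and none rose, and the sum was 4709 to 5185 FPKM in *age-1; gas-1* and 6631 to 7606 FPKM in wt libraries. *gld-1*, a translational repressor of meiotic germ cells, averaged 1582 ± 52.7 FPKM in *age-1; gas-1* mutants, 1972 ± 139.7 FPKM in *gas-1* mutants and 2516 ± 87.1 FPKM in wt. Argonautes and P granule genes of small RNA silencing fell in 31 of 44 cases. *csr-1* had 145, 128, 135, 143 and 134 FPKM in *age-1; gas-1* libraries, against 260.2, 254, 239.8, 279.9 and 239 FPKM in wt libraries, and *hrde-1*, a nuclear Argonaute of inherited silencing, averaged 483 ± 32.1 FPKM in *age-1; gas-1* mutants, 635 ± 62 FPKM in *gas-1* mutants and 886 ± 42 FPKM in wt. The 4 that rose were *alg-1*, *sago-1*, *sago-2* and *nrde-3*, and the call of *nrde-3* was lost without *age-1; gas-1* replicate 2 or 5 or wt replicate 1, 2 or 4. Germline markers moved in the same direction as the ribosomal, nucleolar and proteasome lists, and their part in those results was not tested.

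Sperm and embryo transcripts varied among libraries of one strain. Over 38 sperm genes the median log2(FPKM + 0.1) was 2.15, -0.31, 1.88, 2.11 and -0.0011 in *age-1; gas-1* replicates 1 to 5 and 3.25, 3.29, -1.54, 3.37 and 2.15 in wt replicates 1 to 5. Of these genes 1 rose, the kinase gene *spe-6*, 1 fell, the transcription factor gene *spe-44*, and 36 did not pass the test, but without wt replicate 3 31 fell. Summed over all 66 sperm genes in the tables, the level was 73.3 to 327 FPKM in *age-1; gas-1* and 50.9 to 715 FPKM in wt libraries, and *msd-1*, *msp-31*, *msp-45* and *msp-58* were listed at 0 in all 10. Genes of embryonic patterning had a median of 3.03, 3.71, 3.54, 2.85 and 3.56 in *age-1; gas-1* and 1.77, 1.89, 3.15, 1.72 and 2.34 in wt libraries, so wt replicate 3 lay among the double mutants. Of 15 such genes 10 rose, for example *pha-4*, the pharyngeal organ identity factor, with 13.6, 19.2, 16.1, 12.3 and 17 FPKM in *age-1; gas-1* libraries, against 3.31, 3.61, 9.47, 3.21 and 4.99 FPKM in wt libraries. The intestinal GATA factor gene *elt-7* rose by 1.14 and the posterior Hox gene *nob-1* by 0.88.

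**Figure D4:**
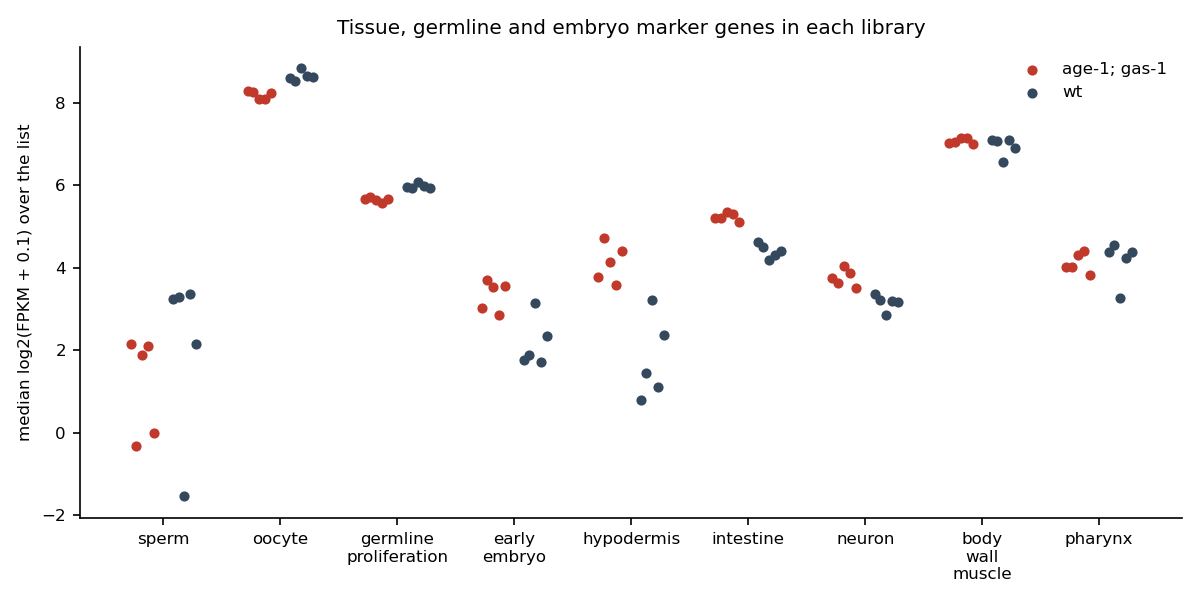
Median log2(FPKM + 0.1) over the measured genes of 9 marker lists in each of the 5 *age-1; gas-1* (red) and 5 wt (dark) libraries. Oocyte and germline proliferation medians are lower in every *age-1; gas-1* library than in any wt library, intestine, neuron and hypodermis medians are higher, and sperm, embryo, muscle and pharynx medians overlap.

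Most hypodermal markers rose in the double mutant, while the share of cuticle collagens that rose was close to that of all genes. The median over 18 hypodermal genes was 3.77, 4.72, 4.13, 3.59 and 4.40 in *age-1; gas-1* and 0.80, 1.44, 3.22, 1.10 and 2.38 in wt replicates 1 to 5, where replicates 3 and 5 were also the highest in embryonic patterning genes. Their sum over 23 genes was 551 to 897 FPKM in *age-1; gas-1* and 312 to 524 FPKM in wt libraries, with none at 0. Of those tested 15 rose, and only *nhr-23* fell. *ajm-1*, of epidermal junctions, averaged 39.8 ± 3.29 FPKM in *age-1; gas-1* mutants and 19 ± 1.62 FPKM in wt, and the Grainyhead factor gene *grh-1* 2.0 ± 0.331 FPKM in *age-1; gas-1* mutants and 0.791 ± 0.0594 FPKM in wt. Of 95 cuticle collagens 42 rose and 7 fell, so the share that rose was 44.2%, beside 43.7% of all genes. The number that rose was 27 at a 1% false discovery rate, 21 with a filter at 5 FPKM and 62 without the libraries low in sperm genes. The number that fell was 4 when *age-1; gas-1* replicate 2 was left out, 14 without wt replicate 3 and 12 without the libraries low in sperm genes. *sqt-3*, a collagen of embryonic and larval cuticle, had 72.1, 135, 80.8, 67.2 and 130.3 FPKM in *age-1; gas-1* libraries, against 9.25, 9.32, 22.3, 7.05 and 16.3 FPKM in wt libraries. wt replicates 3 and 5 were the highest of wt. *col-76* rose by 2.11, and *col-140*, the most abundant collagen, averaged 3298 ± 391 FPKM in *age-1; gas-1* mutants and 2751 ± 421 FPKM in wt with overlapping libraries. Of 34 hedgehog-related and patched-related genes, which serve cuticle and secretion in nematodes, 24 rose and 4 fell, namely *grd-13*, *grd-14*, *ptc-1* and *ptr-2*, and 15 rose after quantile normalization. *ptr-4* averaged 6.29 ± 1.86 FPKM in *age-1; gas-1* mutants and 0.587 ± 0.0746 FPKM in wt. Astacin and neprilysin proteases rose in 20 of 31 cases, or 11 after quantile normalization, such as *nas-39* by 0.98 and *nep-22* by 0.89, and fell in 2, *nas-3* and *nas-20*, the second of which lost its call without wt replicate 2. The part of embryos in the uterus or of hypodermal content in these lists was not tested.

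Neuronal genes rose by moderate amounts. Of 90 neuropeptide and insulin-like genes 77 rose and 2, *ins-34* and *nlp-24*, fell, and 51 rose after quantile normalization. *nlp-14* had 17.2, 16.7, 20.9, 20.1 and 17.2 FPKM in *age-1; gas-1* libraries, against 8.81, 8.01, 7.7, 7.86 and 8.64 FPKM in wt libraries. The strains did not overlap. *nlp-2* rose by 1.93 and *nlp-40*, an intestinal peptide that times defecation, by 0.54. Of 22 neuronal markers 18 rose and none fell, or 11 and 2 after quantile normalization, and 2 also fell without wt replicate 3. Their sum over 31 genes was 433 to 517 FPKM in *age-1; gas-1* and 294 to 333 FPKM in wt libraries, with *unc-17* listed at 0. *ida-1*, of dense core vesicles, averaged 131 ± 12.4 FPKM in *age-1; gas-1* mutants, 111 ± 9.43 FPKM in *gas-1* mutants and 59 ± 5.41 FPKM in wt, and the peptide-processing enzyme genes *egl-3* and *egl-21* rose by 0.94 and 0.89. Receptor channels rose in 16 of 25 cases with a median of 0.46, but after quantile normalization 7 rose, 9 fell and the median was -0.16. The acetylcholine receptor gene *unc-38* averaged 3.06 ± 0.244 FPKM in *age-1; gas-1* mutants, 1.41 ± 0.242 FPKM in *gas-1* mutants and 1.23 ± 0.171 FPKM in wt. The part of neuronal content in these results was not tested.

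Intestinal genes also rose, while muscle and pharynx genes mostly did not pass the test. Of 20 intestinal markers 14 rose and 1, *erm-1*, fell, with sums over 22 genes of 1451 to 1706 FPKM in *age-1; gas-1* and 965 to 1423 FPKM in wt libraries. That was 70% and 5%, beside 43.7% and 32% of all genes. *ges-1*, the gut esterase, had 109, 112, 115, 116 and 102 FPKM in *age-1; gas-1* libraries, against 38, 29.4, 20.5, 24.7 and 29.7 FPKM in wt libraries. It was above wt in every library, while *act-5*, the actin of intestinal microvilli, had a log2 ratio to wt of -0.22 (adjusted p = 0.16) and passed the test without wt replicate 3. The intestine is also where many of the detoxification, lysosomal, yolk and immune genes above are known to be expressed, and the part of intestinal content in those results was not tested. Among 13 aquaporin and glycerol genes 6 rose, such as *aqp-1*, an intestinal glycerol channel, by 2.55 and *aqp-2* by 1.78, and 2, *aqp-8* and *gpdh-3*, fell, or 5 and 5 after quantile normalization. The share that rose, 46.2%, was close to that of all genes. Of 14 amino acid transporters 7 rose (50%) and 2, *aat-4* and *aat-9*, fell, but 4 rose and 7 fell after quantile normalization. Of 29 muscle markers 12 rose, such as the myosin gene *myo-3* with 96.9 ± 5.0 FPKM in *age-1; gas-1* mutants and 50.3 ± 13.5 FPKM in wt, and 1, the cofilin gene *unc-60*, fell. The muscle share that rose was 41.4%, close to the 43.7% of all genes. The pharyngeal myosin gene *myo-1* had a log2 ratio to wt of -0.044 (adjusted p = 0.84), and among 13 pharyngeal genes 3 rose, *pha-4*, *phat-2* and *phat-6*, and 1 fell, *phat-4*. Of these pharyngeal genes 2 rose and 4 fell after quantile normalization.

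Most measured regulators with restricted expression rose as well. Of all genes 43.7% rose and 32% fell, and of those averaging under 5 FPKM 60.7% rose. Of 130 nuclear hormone receptors 111 rose and 4 fell, *nhr-12*, *nhr-23*, *nhr-74* and *nhr-86*, and the call of *nhr-86* was lost without *age-1; gas-1* replicate 3 or 4 or wt replicate 1. The share that rose was 85.4%. After quantile normalization 69 rose and 15 fell, and with a filter at 5 FPKM, which leaves fewer genes, 55 rose and 2 fell. *nhr-61* had 66.6, 76, 82.3, 80.3 and 70.8 FPKM in *age-1; gas-1* libraries, against 7.81, 8.16, 9.87, 7.2 and 9.19 FPKM in wt libraries. It rose by 3.14 with all libraries apart, and *nhr-115* averaged 3.33 ± 0.268 FPKM in *age-1; gas-1* mutants, 4.32 ± 0.213 FPKM in *gas-1* mutants and 0.467 ± 0.0594 FPKM in wt. *nhr-25*, an epidermal and embryonic receptor and the most abundant, averaged 208 ± 65.7 FPKM in *age-1; gas-1* mutants and 66.2 ± 45.3 FPKM in wt with overlapping libraries. Of 63 homeobox, bHLH, T-box and GATA factors 41 rose (65.1%) and 7 fell, or 26 and 11 after quantile normalization, and 19 rose with the filter at 5 FPKM. *hlh-11*, a bHLH repressor, rose by 1.21. F-box proteins, adaptors of ubiquitin ligases, rose in 87 of 129 cases and fell in 17, or in 38 and 29 after quantile normalization. The share that rose, 67.4%, was close to that of all genes under 5 FPKM, and 23 rose with the filter at 5 FPKM. Of 315 listed F-box genes 129 were tested. *fbxc-58* averaged 8.98 ± 1.9 FPKM in *age-1; gas-1* mutants, 4.77 ± 2.18 FPKM in *gas-1* mutants and 0.569 ± 0.0989 FPKM in wt, and *fbxa-192* 1.72 ± 0.142 FPKM in *age-1; gas-1* mutants, 1.99 ± 0.30 FPKM in *gas-1* mutants and 5.96 ± 0.20 FPKM in wt.

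Genes on the X chromosome rose far more often than those on the autosomes. Of 1560 tested X-linked genes 1133 rose (72.6%) and 97 fell (6.22%), with a median of 0.56 on the log2 scale. Of 9685 autosomal genes 3776 rose (39%) and 3507 fell (36.2%), with a median of 0.01. Chromosome V had the next highest median, 0.28, and chromosome I the lowest, -0.12. X-linked genes in the germline are known to be largely silent in nematodes, and the germline lists fell, but the part of germline content in this difference was not tested. Genes of similar level differed in the same way. Among genes averaging 20 to 100 FPKM 74.7% of X-linked and 23.6% of autosomal genes rose, and among those at 100 FPKM or more 61.7% and 20.4% did. The X median was above the autosomal median under every setting tried, between 0.22 after quantile normalization, where the autosomal median was -0.17, and 0.62 after rescaling to the sum without the yolk genes, where it was 0.06. With quantile normalization 740 X-linked genes rose and 295 fell.

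**Figure D5:**
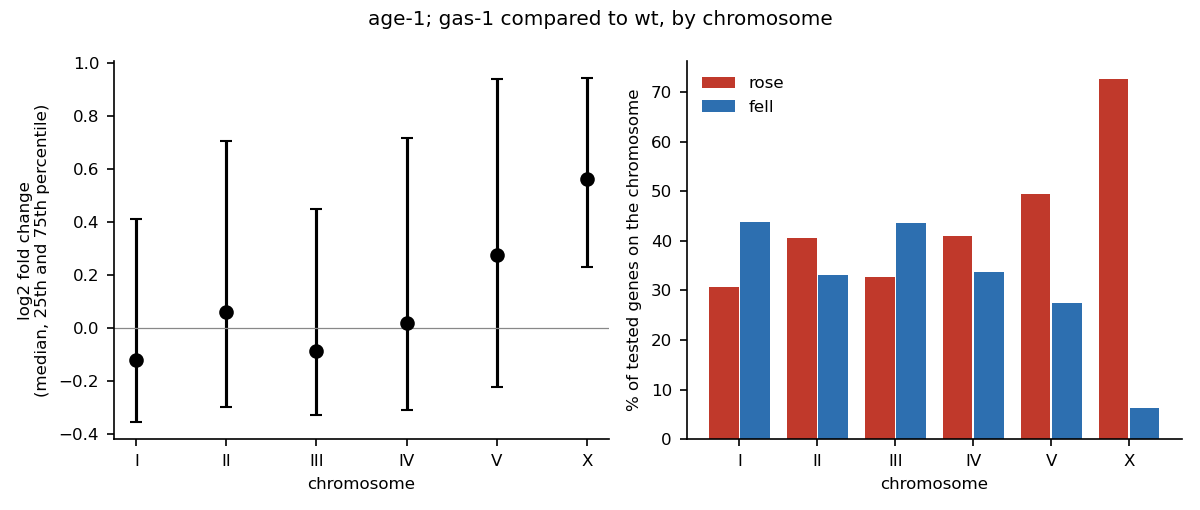
Genes tested on each chromosome in *age-1; gas-1* mutants relative to wt, as median log2 fold change with 25th and 75th percentiles (left) and as percent of genes that rose (red) or fell (blue) (right). Chromosome X has a median of 0.56 and 72.6% of its genes higher, against medians of -0.12 to 0.28 on the autosomes.

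The double mutant was also set beside the *gas-1* single mutant. In *gas-1* mutants relative to wt 42.8% of the same genes rose and 25.3% fell. These comparisons share their wt libraries, so their counts are given side by side only. Tested directly, 1557 genes were higher (13.7%) and 2217 lower (19.6%) in *age-1; gas-1* than in *gas-1* mutants. Among the lists, 17 of 23 lysosomal proteases were higher and none lower in this direct test. Of 21 nucleolar genes 8 were lower and 13 did not pass the test. Of 130 nuclear receptors 25 were higher, 7 were lower and 98 did not pass.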

How the data were processed

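Whole animals of 3 strains were sequenced in 5 libraries each, and for every library the authors deposited a table of FPKM over 20483 gene IDs. The submitters' processing notes name Cuffdiff, Cufflinks 2.1.1, the aligner STAR 2.4.0h, CASAVA 1.8.2 and, for read quality, FastQC 0.10.1. Libraries were made with a stranded TruSeq mRNA kit. Build, annotation and whether the counting used strand were not given in the sources used here. FPKM hold no read totals, so the depth of a library is only roughly known. Strains were taken from the sample labels, and no library was left out. Genes that reached 1 FPKM in 5 or more of the 10 *age-1; gas-1* and wt libraries were tested. Values were log2(FPKM + 0.1), fitted for all 15 libraries together with limma 3.58.1 in R 4.3.3, with an intensity trend and Benjamini-Hochberg adjustment over all tested genes at a false discovery rate of 5%. The procedure was tested on simulated data. Lists are described by counts and medians, with no test over a list.

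Genes were named by a rule. It took the 12 that rose and the 12 that fell most among those with no overlap between the strains and a mean of at least 5 FPKM in the higher one, up to 3 members of each list with the smallest adjusted p, the most abundant member of each list, and the genes the study's text names on insulin signaling, AMPK, PKA, mitochondrial fusion, translation, carbohydrates and purines. The members and lists were chosen with earlier results of these data known. Coordinates and names are from WBcel235, in which 20179 IDs were found. Alternatives changed the pseudocount, filter, scaling, fit, threshold and libraries. Same-numbered *age-1; gas-1* and wt libraries share only a number. Promoter motifs and genes encoded in mitochondria were not analysed here.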

Additional observations from a re-analysis of the deposited data

Results flagged for a closer look

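Some genes had 1 library far from the other 4 of its strain, by Dixon's test at its 95% critical value. Of 562 groups of 5 libraries, over the genes and marker lists named, 29 held such a library, and chance gives about 1 in 20. wt replicate 3 was that library in 17 of the 29. The median log2(FPKM + 0.1) of sperm genes was -1.54 there and 2.15 to 3.37 in the other wt libraries, and that of pharyngeal genes 3.26 there and 4.24 to 4.55 in the others. Genes low in wt replicate 3 were *clec-139* (0.837 FPKM, the others 1.84 to 2.17), *fipr-5* (2.16 FPKM, the others 4.5 to 5.16), *gas-1* (95.7 FPKM, the others 116 to 123), *kin-1* (15.7 FPKM, the others 21.4 to 22.7), *kin-2* (43.4 FPKM, the others 57.5 to 62.6) and *phat-4* (14.6 FPKM, the others 35.1 to 41.3). Genes high in wt replicate 3 were C06B3.7 (1.72 FPKM, the others 0.136 to 0.425), *acly-2* (252 FPKM, the others 209 to 219.97), *cyp-31A2* (13.3 FPKM, the others 11.6 to 11.7), *gpd-1* (85.7 FPKM, the others 64.6 to 70.1), *hsp-70* (0.76 FPKM, the others 0.16 to 0.233), *lin-65* (353 FPKM, the others 302 to 312), *mop-25.2* (54.8 FPKM, the others 46.6 to 48.8), *nob-1* (5.46 FPKM, the others 3.71 to 4.15) and *pha-4* (9.47 FPKM, the others 3.21 to 4.99).

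In other libraries the distances were as follows. *acdh-11* had 42.8 FPKM in *age-1; gas-1* replicate 3, above 39.7 to 40.4 FPKM in the other 4 libraries, and *cyp-14A1* had 16.8 FPKM in *age-1; gas-1* replicate 3, above 14.5 to 15 FPKM in the other 4 libraries. *eif-3.J* had 142 FPKM in *age-1; gas-1* replicate 5, above 124 to 129 FPKM in the other 4 libraries, and *exh-1* had 2.33 FPKM in *age-1; gas-1* replicate 3, above 1.62 to 1.82 FPKM in the other 4 libraries. *fis-2* had 13.4 FPKM in *age-1; gas-1* replicate 4, below 14.5 to 14.8 FPKM in the other 4 libraries, and *gob-1* had 32.6 FPKM in *age-1; gas-1* replicate 3, above 29.3 to 30.2 FPKM in the other 4 libraries. *lin-41* had 81.3 FPKM in *age-1; gas-1* replicate 1, above 74.1 to 76 FPKM in the other 4 libraries, and *ndua-12* had 46.9 FPKM in *age-1; gas-1* replicate 4, above 44.8 to 45.3 FPKM in the other 4 libraries. *cpr-6* had 147 FPKM in wt replicate 4, below 169.6 to 178 FPKM in the other 4 libraries, and *ncl-1* had 41.8 FPKM in wt replicate 1, below 48.4 to 50.9 FPKM in the other 4 libraries. *pals-23* had 3.97 FPKM in wt replicate 5, above 1.83 to 2.38 FPKM in the other 4 libraries, and *pck-2* had 151 FPKM in wt replicate 4, below 176 to 185 FPKM in the other 4 libraries.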

How the results depend on the processing

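The counts moved mainly with the filter, the scaling and the required size of change. Compared to wt, 7990 genes rose with no filter and 2923 with a filter at 5 FPKM, and 879 fell by at least 0.5 on the log2 scale. At least 2-fold higher were 1176 genes with a pseudocount of 1 FPKM, 932 with the filter at 5 FPKM and 935 after quantile normalization. At least 2-fold lower were 47 with that filter, 482 after quantile normalization, 179 with robust estimation and array weights and 135 without the 4 libraries low in sperm genes (*age-1; gas-1* replicates 2 and 5, *gas-1* replicate 2 and wt replicate 3). The median of all genes was -0.055 with the filter at 5 FPKM, -0.12 after quantile normalization and 0.017 once rescaled to medians of ratios. Between the mutants 2356 genes rose and 3483 fell with robust estimation and array weights, 952 and 1383 at a 1% false discovery rate, and 817 and 222 by at least 0.5 on the log2 scale. Leaving out 1 library at a time gave 4694 to 5103 genes that rose and 3441 to 3738 that fell compared to wt, 1716 to 1879 at least 2-fold higher and 76 to 261 at least 2-fold lower, the highest without wt replicate 3, and 1235 to 1832 higher and 1881 to 2544 lower between the mutants. Of 81 list counts of 5 or more, 21 moved by over 1.5 times with the filter at 5 FPKM, 19 after quantile normalization, 4 after median-of-ratios rescaling and 38 with at least 0.5 on the log2 scale, and at most 3 under each other alternative. The fits without the 4 libraries low in sperm genes and after rescaling to the sum without yolk genes were chosen after seeing the data. Over 272 named genes and 25 alternatives, 6565 of 6764 values kept direction and side of the threshold, 190 no longer passed, 8 newly passed, and 1 reversed, *phat-6* at -0.084 after quantile normalization. The causes were not tested.

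With the replicate number as a block 4906 genes rose and 3593 fell. Deviations of same-numbered *age-1; gas-1* and wt libraries from their strain means had correlations across genes of 0.598, -0.775, -0.692, 0.714 and 0.103, and 0 of 5 correlated best with its own number, so the numbers give no pairing.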
